A study of Mus musculus with 8 samples.

Results

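The TRAV12 family of T-cell receptor (TCR) alpha chains, the mouse V alpha 8 family, was examined in T cells from brains collected 2 months after traumatic brain injury (TBI). Members were chosen by the V gene that was called for each alpha chain, and the 9 genes looked for were TRAV12-1, TRAV12-2 and TRAV12-3, their D copies TRAV12D-1 to TRAV12D-3 and their N copies TRAV12N-1 to TRAV12N-3. A TRAV12 chain was found in 364 of the 2298 cells with an alpha chain, and these cells belonged to 168 of the 1377 clonotypes with an alpha chain. No cell carried a second TRAV12 chain. The share of the family per library, its J and beta partners and its clone sizes are therefore a description of the chains that the V call selected.

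Single-cell TCR libraries were made from CD45+ brain cells of male C57BL/6 mice, with 1 library in each of 4 groups and the cells of 2 mice pooled in each. All mice received a controlled cortical impact, so an uninjured brain was not part of the comparison. YTBI_Isotype and YTBI_aCD49d came from young mice, 13 to 15 weeks old at injury, and ATBI_Isotype and ATBI_aCD49d from aged mice, 80 to 82 weeks old. The aCD49d groups were injected every 2 weeks with an antibody (Ab) against CD49d, the integrin alpha 4 subunit through which lymphocytes adhere to vessels, and the Isotype groups with a control Ab. With 1 library per group no test between groups was possible, and the effects of age and treatment cannot be told apart from those of the mice that were pooled. The aged mice were supplied by the National Institute on Aging and the young mice by Jackson Laboratory. Age therefore cannot be told apart from the source of the mice either. Intervals given in parentheses are exact 95% Clopper-Pearson intervals, or Newcombe intervals built from them for differences in percentage points. They cover counting error only, and cells of 1 clone do not count independently.

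An alpha chain is built in the thymus when 1 of many V segments is joined to 1 of many J segments, and the join forms complementarity-determining region 3 (CDR3), which touches the peptide. The regions CDR1 and CDR2 are fixed by the V gene and lie mainly over the MHC molecule. A thymocyte can join further V and J segments on the same allele, each time using a V segment farther out and a J segment farther downstream. In C57BL/6 mice the middle of the V alpha region has been copied, and the extra copies are marked D and N.

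All family members lie on the plus strand of chromosome 14 (GRCm38, GENCODE vM21), upstream of the J segments. The D copies span chr14:52844465-52930282, the N copies chr14:53155512-53241244 and the unmarked copies chr14:53538191-53622245. The last gene of each block lies 1225 kb (D), 914 kb (N) and 533 kb (unmarked) before Traj61, the first J segment. A chain was called to 6 of the 9 genes, and none was called to an N copy. The annotated transcripts of each D gene and its N counterpart did not differ at any of the 436, 454 and 347 bases compared, so a D call cannot be told apart from the N copy of the same number, and TRAV12D is used below for both. In contrast, an unmarked gene differed from its D counterpart at 18, 13 and 11 bases. Of the 364 chains, 363 carried the usual V region of their called gene, and called genes of equal length differed at 9 to 22 bases of that region.

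The CDR1 sequences of the called genes are shown as the loop in which TRAV12-1 and TRAV12D-1 differ; they hold only some of the germline differences between members. They were read from the assembled chains, and capitals mark the bases that differ between an unmarked gene and the D gene of the same number.
TRAV12-1: actActtaTtTaACtAttgcc
TRAV12D-1: actGcttaCtCaGAtGttgcc
TRAV12-2: aGtacttactcacctttc
TRAV12D-2: aCtacttactcacctttc
TRAV12-3: actatttactcaaatGctttc
TRAV12D-3: actatttactcaaatCctttc
The TRAV12-1 and TRAV12D-1 loops differed at 6 of 21 bases, and the other pairs at 1 base each. The loop of TRAV12-2 and TRAV12D-2 was shorter, with 18 bases. In CDR2 the pairs differed at 0, 1 and 1 of 21 bases.

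Depth was modest. The median number of unique molecular identifiers (UMIs) per TRAV12 chain was 5 in YTBI_Isotype and 4 in YTBI_aCD49d among the young, and 2 in ATBI_Isotype and 4 in ATBI_aCD49d among the aged, against 4, 3, 3 and 4 for other alpha chains. An alpha chain was recovered in 82.8%, 78.3%, 67.6% and 83.4% of all cells in the same order, and in 93.9%, 96.2%, 71.5% and 87.6% of the cells of TRAV12 clonotypes. ATBI_Isotype was thus the library in which alpha chains were most often missed, and the part of this in the shares below was not tested beyond the counts over every cell given with them. The libraries shared 1 cell barcode, and it carried no TRAV12 chain.

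TRAV12 was one of the most used alpha families in every library, and the intervals of its share of clonotypes overlapped in all 4. It was used by 27 of 193 clonotypes in YTBI_Isotype (14.0%, 9.43 to 19.7), 39 of 375 in YTBI_aCD49d (10.4%, 7.50 to 13.9), 48 of 343 in ATBI_Isotype (14.0%, 10.5 to 18.1) and 54 of 466 in ATBI_aCD49d (11.6%, 8.83 to 14.8). Among families it ranked 2, 3, 1 and 1 by clonotypes. The isotype libraries exceeded the aCD49d libraries by 2.41 points in aged mice (-2.37 to 7.37) and by 3.59 points in young mice (-2.19 to 9.99), and both intervals held 0.

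By cells, in contrast, ATBI_Isotype stood apart. TRAV12 cells were 31 of 217 (14.3%, 9.92 to 19.7) in YTBI_Isotype, 49 of 452 (10.8%, 8.13 to 14.1) in YTBI_aCD49d, 178 of 692 (25.7%, 22.5 to 29.2) in ATBI_Isotype and 106 of 937 (11.3%, 9.36 to 13.5) in ATBI_aCD49d. The 3 other libraries overlapped in their intervals, and ATBI_Isotype lay above all of them. It exceeded ATBI_aCD49d by 14.4 points (10.5 to 18.4) and YTBI_Isotype by 11.4 points (5.17 to 17.0); these comparisons share the ATBI_Isotype library. The corresponding differences were 3.45 points (-1.99 to 9.47) between the young libraries and 0.472 points (-3.31 to 3.97) between the aged and young aCD49d libraries. Counting every cell of a TRAV12 clonotype over every cell of the library, whether or not its alpha chain was recovered, gave 12.6%, 9.01%, 24.7% and 10.8%.

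**Figure D1:**
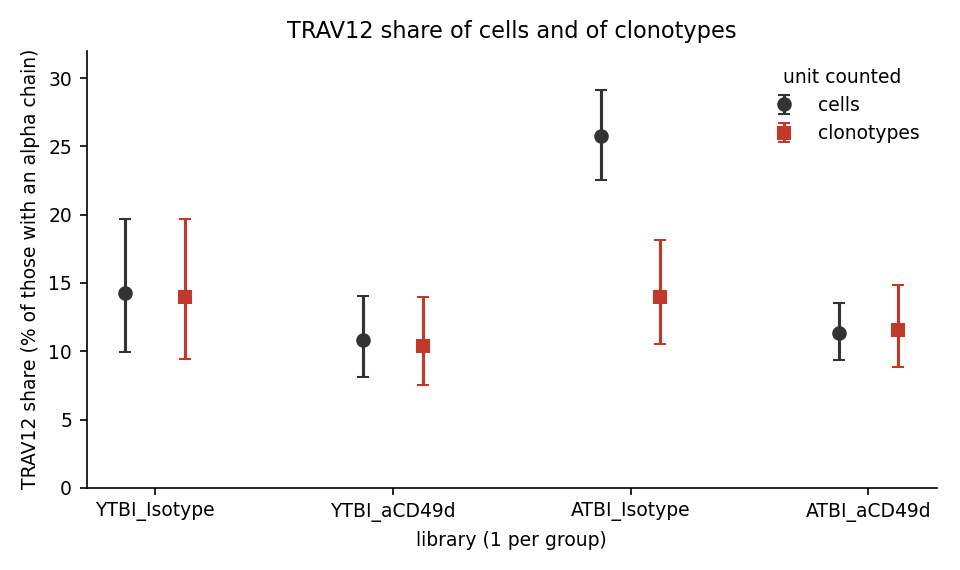
TRAV12 share in percent of cells (circles) and of clonotypes (squares) with an alpha chain in each library, with exact 95% intervals for counting error. By clonotypes the libraries lie between 10.4% and 14.0%, and by cells ATBI_Isotype lies at 25.7% and the other libraries between 10.8% and 14.3%.

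A large part of the TRAV12 cells of ATBI_Isotype lay in few clonotypes. When the largest TRAV12 clonotype of each library was left out, the share of cells was 13.5%, 9.64%, 17.8% and 7.36%, and ATBI_Isotype exceeded ATBI_aCD49d by 10.4 points (6.92 to 14.0) and YTBI_Isotype by 4.27 points (-1.78 to 9.62). In YTBI_Isotype 2 clonotypes of 3 cells tied as the largest. The one left out had its TRAV12 chain in 2 cells, and leaving out the other gave 13.1% and a difference of 4.68 points (-1.35 to 9.98). In ATBI_Isotype alone the largest clonotype shared its alpha chain with others, 3 clonotypes in all. When every clonotype with the alpha chain of the largest was left out of each library, a step chosen after the sizes were seen, 65 of 579 cells remained in ATBI_Isotype (11.2%, 8.77 to 14.1) and 66 of 897 in ATBI_aCD49d (7.36%, 5.74 to 9.27). The difference between the aged libraries was then 3.87 points (0.759 to 7.15), and ATBI_Isotype minus YTBI_Isotype was -2.26 points (-8.11 to 2.87), or -1.86 points with the other of the tied clonotypes left out. Left out of ATBI_Isotype alone, the 3 clonotypes took the aged difference to -0.0864 points (-3.39 to 3.38).

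Family members differed in how many cells each of their clonotypes held. TRAV12-1 had 14 clonotypes in all and 138 cells. In the young libraries it was carried by 3 cells (YTBI_Isotype) and 5 cells (YTBI_aCD49d), and in the aged ones by 129 cells (ATBI_Isotype) and 1 cell (ATBI_aCD49d), from 3, 3, 7 and 1 clonotypes. The ATBI_Isotype count was thus far above the others in cells, and 16 of its 129 cells lay outside the 3 clonotypes named above. TRAV12-2 was carried by 5, 17, 15 and 59 cells of 5, 10, 12 and 16 clonotypes in the same order, and so was the member with most cells in ATBI_aCD49d. TRAV12-3 had 4, 4, 2 and 7 cells, each of a clonotype of its own.

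Among the D genes, TRAV12D-1 was rare, with 1, 4, 2 and 3 cells of 1, 4, 1 and 2 clonotypes. TRAV12D-2 had 8, 13, 12 and 27 cells of 5, 12, 11 and 19 clonotypes, and its 47 clonotypes were the most of any member. TRAV12D-3 had 10, 6, 18 and 9 cells of 9, 6, 15 and 9 clonotypes. By clonotypes the D genes were 55.6% (35.3 to 74.5) of the family in YTBI_Isotype and 56.4% (39.6 to 72.2) in YTBI_aCD49d, then 56.3% (41.2 to 70.5) in ATBI_Isotype and 55.6% (41.4 to 69.1) in ATBI_aCD49d. By cells their share was 61.3% (42.2 to 78.15), 46.9% (32.5 to 61.7), 18.0% (12.6 to 24.4) and 36.8% (27.6 to 46.7). The split between copies was therefore nearly equal across libraries when each clonotype counted once. When cells were counted, ATBI_Isotype lay below the other libraries, which overlapped in their intervals. Many unmarked cells of the aged libraries came from few clones, with 113 cells carrying 1 TRAV12-1 chain in ATBI_Isotype. In ATBI_aCD49d 40 cells carried the TRAV12-2 chain of 1 clonotype.

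**Figure D2:**
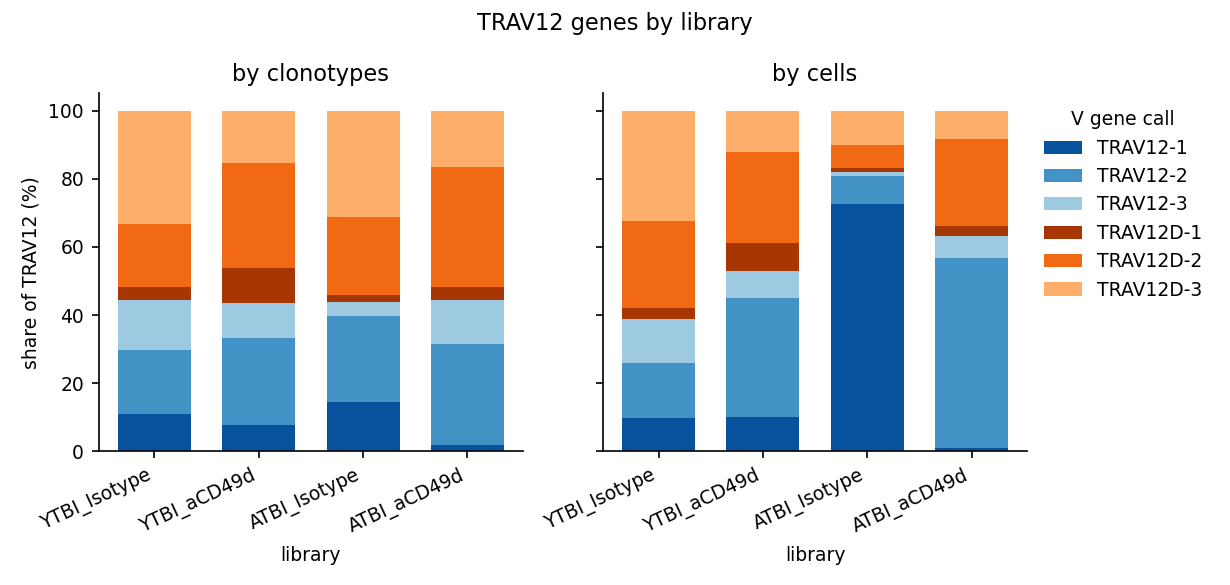
Share of TRAV12 in percent held by each called V gene in the 4 libraries, by clonotypes (left) and by cells (right), with unmarked genes in blue and D genes in orange. TRAV12-1 holds 72.5% of TRAV12 cells in ATBI_Isotype and TRAV12-2 holds 55.7% in ATBI_aCD49d. By clonotypes the D genes together hold between 55.6% and 56.4% in every library.

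Between 1 and 3 members differed in their share of clonotypes in each comparison of 2 libraries. Called here means a share of clonotypes at least 2-fold apart, among genes with at least 5 clonotypes in both libraries together. Between ATBI_Isotype and ATBI_aCD49d, 3 of 5 members were called and 34.5% of all 58 TRAV genes. The 3 members were TRAV12-1 with 7 against 1 clonotypes, TRAV12D-3 with 15 against 9 and TRAV12-3 with 2 against 7. Between YTBI_Isotype and YTBI_aCD49d, 2 of 6 members were called and 41.3% of all genes, with TRAV12D-3 at 9 against 6 clonotypes and TRAV12D-1 at 1 against 4. Between ATBI_Isotype and YTBI_Isotype 1 of 5 members was called, TRAV12-3 with 2 against 4 clonotypes, and 46.5% of all genes. Between ATBI_aCD49d and YTBI_aCD49d 1 of 5 was called, TRAV12D-1 with 2 against 4, and 31.1% of all genes. TRAV12D-3 was the one member called in the same direction in both comparisons of treatment, with a share 2.26-fold higher under isotype in aged and 2.91-fold higher in young mice. With at least 10 clonotypes in both libraries together, 2 of these 7 calls remained, both of TRAV12D-3, since the other members called had fewer. The 7 TRAV12-1 clonotypes of ATBI_Isotype held 4 alpha rearrangements. With such counts these folds are a description.

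The clearest difference between members was in the J segment they had joined. J segments are numbered from TRAJ1, farthest from the V genes, to TRAJ61, nearest to them, and each distinct rearrangement (V gene, J gene and CDR3 bases) was counted once per library. Unmarked genes had joined TRAJ31 or higher, the side near the V genes, in 43 of 71 rearrangements (60.6%, 48.3 to 72.0), and D genes in 18 of 94 (19.1%, 11.8 to 28.6). The difference was 41.4 points (25.9 to 55.0). The median J segment was TRAJ34 for unmarked and TRAJ22 for D genes. When cells were counted in place of rearrangements the difference was 15.1 points (4.66 to 24.5). Of the unmarked cells, 113 carried 1 TRAJ22 chain that 3 clonotypes of ATBI_Isotype shared.

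The direction was the same in 4 of 4 libraries. The shares of unmarked and D genes were 9 of 12 against 4 of 15 in YTBI_Isotype, 8 of 17 against 1 of 22 in YTBI_aCD49d, 9 of 18 against 5 of 27 in ATBI_Isotype and 17 of 24 against 8 of 30 in ATBI_aCD49d. The differences were 48.3 points (5.39 to 75.5), 42.5 (12.3 to 68.0), 31.5 (0.532 to 58.4) and 44.2 (15.01 to 66.1), so each interval lay above 0. By gene, the share was 62.8% of 43 rearrangements for TRAV12-2 and 64.7% of 17 for TRAV12-3, against 14.9% of 47 for TRAV12D-2 and 20.5% of 39 for TRAV12D-3. TRAV12-1 with 5 of 11 (45.5%, 16.7 to 76.6) and TRAV12D-1 with 3 of 8 (37.5%, 8.52 to 75.5) had too few rearrangements to be told apart.

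**Figure D3:**
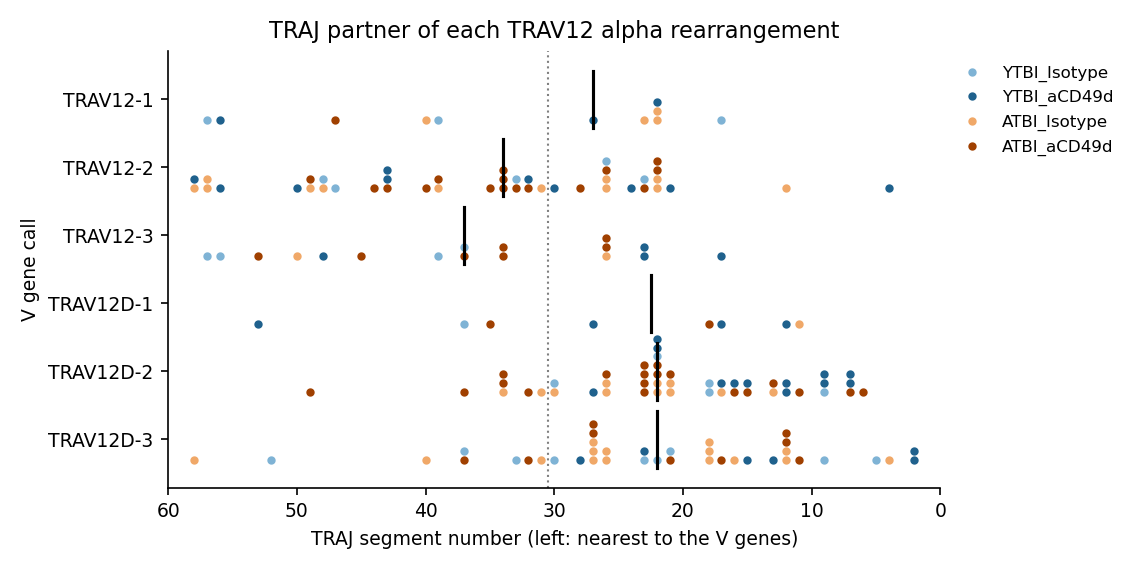
TRAJ segment number (x axis, J segments nearest to the V genes on the left) of each TRAV12 rearrangement by called V gene (y axis), coloured by library. Black bars are medians and the dotted line separates TRAJ31 and higher; TRAV12-2 and TRAV12-3 have medians of 34 and 37, and TRAV12D-2 and TRAV12D-3 of 22.

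This split was not particular to TRAV12. Of 12 other families with D or N copies, 12 had a higher share of TRAJ31 or higher in their unmarked copies, and for 9 the interval lay above 0. Over those families together the shares were 334 of 527 (63.4%) and 174 of 596 (29.2%), a difference of 34.2 points (28.4 to 39.7). TRAV12 ranked 6 of 13 by the size of the difference. TRAV14 showed 68.4 points (51.8 to 79.7), and TRAV7, at 6.26 points (-9.23 to 21.5), was the smallest.

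**Figure D4:**
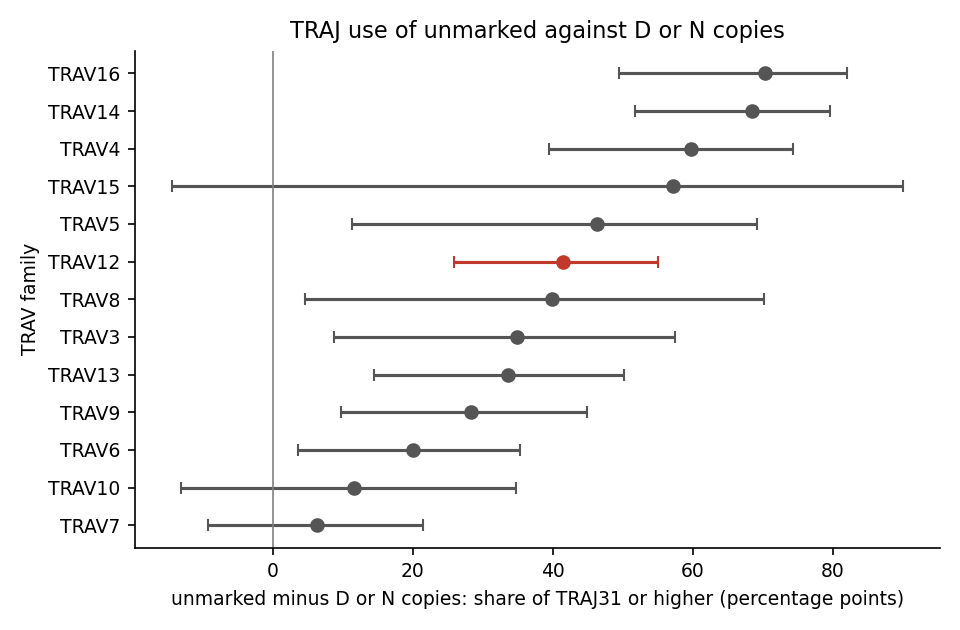
Difference between unmarked and D or N copies in the share of rearrangements with TRAJ31 or higher, in percentage points with 95% Newcombe intervals, for each TRAV family (y axis) with such copies. TRAV12 (red) lies at 41.4 points, within the range of 6.26 to 70.4 points of the families.

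Over all members, TRAV12 rearrangements used 41 TRAJ segments, and 61 of 165 (37.0%) had TRAJ31 or higher against 46.1% of 1203 other alpha rearrangements, a difference of -9.08 points (-17.0 to -0.732). By library the family's share was 48.1%, 23.1%, 31.1% and 46.3%, against 44.8%, 50.1%, 41.9% and 46.2% for other chains, so the pooled difference rested mainly on YTBI_aCD49d. The partners used most were TRAJ22 in 15 rearrangements, TRAJ26 in 12, TRAJ23 in 11, and TRAJ12, TRAJ27 and TRAJ34 in 8 each. TRAJ22 was found in 9.09% (5.18 to 14.6) of TRAV12 and 6.65% of other rearrangements, a difference of 2.44 points (-1.77 to 8.06). TRAJ26 reached 7 of 45 rearrangements in ATBI_Isotype and 0 of 39 in YTBI_aCD49d, and over all libraries it was 3.53 points (-0.140 to 8.72) above its share in other chains. In ATBI_Isotype alone TRAJ26 was 12.2 points (2.71 to 26.2) above its share in other chains. Over all libraries the intervals of TRAJ22, TRAJ26, TRAJ23, TRAJ12 and TRAJ27 held 0. TRAJ34 was found in 4.85% of TRAV12 and 3.24% of other rearrangements, and no interval was computed for that difference. TRAJ18, the J segment of invariant natural killer T cells, was carried by 8 TRAV12 cells, and TRAJ33, that of mucosal-associated invariant T cells, by 3. No TRAV12 clonotype was marked as invariant by its alpha chain.

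CDR3 loops of TRAV12 chains had a mean length of 13.4 ± 1.72 residues in YTBI_Isotype (SD, n = 27 rearrangements), 14.0 ± 1.11 in YTBI_aCD49d (n = 39), 13.5 ± 1.56 in ATBI_Isotype (n = 45) and 13.8 ± 1.19 in ATBI_aCD49d (n = 54). Other chains averaged 13.8, 13.6, 13.5 and 13.6 residues. TRAV12 minus other chains was -0.362 (SE 0.344), 0.453 (SE 0.195), -0.0362 (SE 0.246) and 0.253 (SE 0.176) residues in the same order, so the difference exceeded 2 SE in YTBI_aCD49d, where TRAV12 loops were longer. These SE are over rearrangements of 1 library, not over mice. Lengths ran from 8 to 16 residues. The median number of junction bases that matched neither the V nor the J segment was 3, with a range of 0 to 11, and 24 of 165 junctions had none. Mean lengths by gene ran from 13.5 residues in TRAV12D-3 to 14.1 in TRAV12-1.

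Beta chains were known for 164 of the 168 TRAV12 clonotypes, which used 22 TRBV segments. TRBV19 was the most frequent partner, in 22 clonotypes (13.4%, 8.60 to 19.6) against 76 of 1169 (6.50%) with other alpha families, a difference of 6.91 points (1.85 to 13.2). It was higher with TRAV12 in all 4 libraries, with 7 of 27, 3 of 37, 5 of 47 and 7 of 53 clonotypes against 8.33%, 4.89%, 6.67% and 6.98% of the others. The difference was 17.6 points (1.79 to 38.3) in YTBI_Isotype, and in each of the other libraries the interval held 0. Cells were also counted in place of clonotypes, over every cell of a TRAV12 clonotype with a beta chain, whether or not its alpha chain was recovered. TRBV19 was then carried by 27.3% of 33, 8.16% of 49, 1.99% of 251 and 7.63% of 118 cells in the same order. The combined call TRBV12-2+TRBV13-2 followed with 16 clonotypes, then TRBV13-3 with 13, TRBV13-1 with 12 and TRBV12-1 with 11. Their differences from other alpha families, between -3.16 and 2.69 points over all libraries, had intervals that held 0. Within YTBI_aCD49d, TRBV12-1 was 10.5 points (1.14 to 25.8) higher with TRAV12.

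Clonal expansion of TRAV12 cells was highest in ATBI_Isotype. A cell was clonal when its clonotype had at least 2 cells in the library. Clonal cells were 8 of 31 (25.8%, 11.9 to 44.6) in YTBI_Isotype, 18 of 49 (36.7%, 23.4 to 51.7) in YTBI_aCD49d, 142 of 178 (79.8%, 73.1 to 85.4) in ATBI_Isotype and 63 of 106 (59.4%, 49.5 to 68.9) in ATBI_aCD49d. For other alpha cells the shares were 17.2%, 24.1%, 55.8% and 58.6%, from more cells in each library. In 31 cells drawn from either set, the number in the smallest, the expected share was 22.6% for TRAV12 and 5.16% for other alpha cells in YTBI_Isotype, 24.9% and 7.67% in YTBI_aCD49d, 70.3% and 25.2% in ATBI_Isotype, and 45.9% and 32.1% in ATBI_aCD49d. These expected values count as clonal only cells drawn together. Cells of a clone share their V gene, so the TRAV12 set keeps them together. The same draw from the larger set of other cells, over many V genes, separates them more often. In YTBI_Isotype the draw took all 31 TRAV12 cells. In ATBI_aCD49d the shares before drawing were 59.4% and 58.6%. The draw therefore cannot tell whether TRAV12 cells were more clonal than other alpha cells. Clonotypes with at least 2 cells were 4 of 27, 8 of 39, 12 of 48 and 11 of 54, and the intervals of these shares overlapped. The aged isotype library exceeded the aged aCD49d library by 20.3 points (8.80 to 31.8), and the young isotype library was below the young aCD49d library, by -10.9 points (-31.4 to 12.1). With at least 3 cells required, the young isotype library was above the young aCD49d library instead, with 16.1% against 12.2%. Without the clonotypes with the alpha chain of the largest in each library, clonal cells were 6 of 29 (20.7%, or 5 of 28 with the other of the tied clonotypes left out), 12 of 43 (27.9%), 29 of 65 (44.6%) and 23 of 66 (34.8%), and the aged difference was 9.77 points (-7.96 to 26.9).

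**Figure D5:**
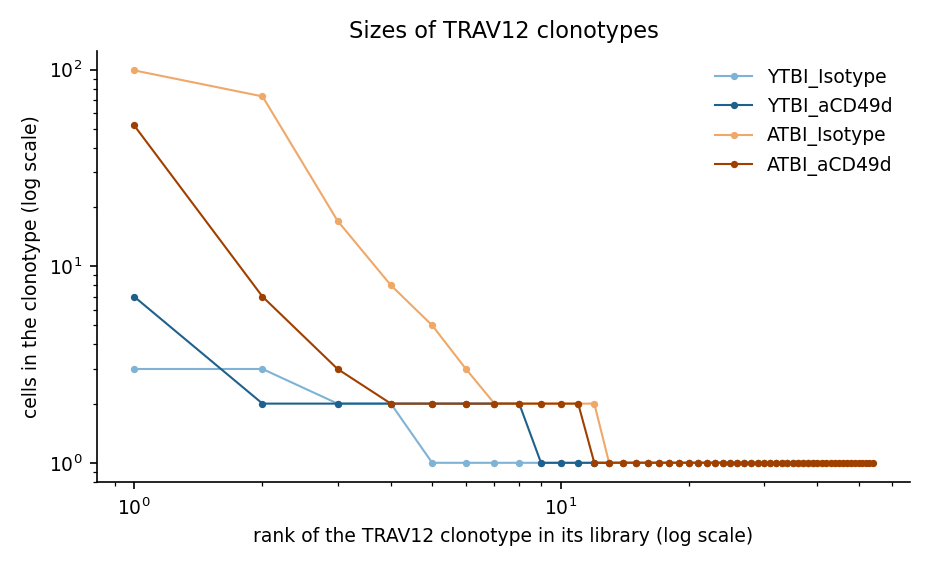
Cells per TRAV12 clonotype (y axis, log scale) against its rank in the library (x axis, log scale), a line for each library. The 2 largest clonotypes of ATBI_Isotype hold 99 and 73 cells and the largest of ATBI_aCD49d holds 52, while no clonotype of the young libraries exceeds 7 cells.

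The largest TRAV12 clonotypes of ATBI_Isotype had 99 cells (9.67% of the library, 7.93 to 11.6) and 73 cells (7.13%, 5.63 to 8.88). Both had joined TRAV12-1 to TRAJ22 with the same bases and TRBV14 to TRBJ1-2. Over the V region and CDR3, their beta chains differed only by C5T, counted from the first base of CDR3 and written from the smaller to the larger clonotype. Trbv14 (chr6:41135145-41135616, GRCm38) has C there. The sequences are shown because this one base separates the clonotypes. Capitals mark that base in the beta chains, and in the alpha chain the bases that match neither segment.
Alpha chain of both clonotypes: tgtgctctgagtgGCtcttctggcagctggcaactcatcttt
Beta chain of the smaller clonotype: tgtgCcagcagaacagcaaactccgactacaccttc
Beta chain of the larger clonotype: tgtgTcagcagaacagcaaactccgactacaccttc
The change altered 1 residue. No cell carried both beta chains, and the beta chain rested on at least 2 UMIs in 98 of 99 and 72 of 73 cells. A further clonotype of 2 cells had the same alpha chain and no beta chain. The 3 clonotypes together held 174 cells, 17.0% of the library (14.7 to 19.4), of which 113 had the alpha chain. Neither the alpha chain nor either beta chain was found in another library.

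The next largest TRAV12 clonotype of ATBI_Isotype, with 17 cells (1.66%, 0.970 to 2.64), also used TRAV12-1 with TRAJ22, through a junction of its own with 8 unmatched bases, and was paired with TRBV12-2+TRBV13-2 and TRBJ1-6. A clonotype of 1 cell had the same alpha and beta CDR3 bases with the call TRBV13-2 and was deposited as a separate clonotype. In ATBI_aCD49d the largest TRAV12 clonotype had 52 cells (4.63%, 3.48 to 6.03) and joined TRAV12-2 to TRAJ32 with TRBV12-2 and TRBJ2-3. It was followed by a clonotype of 7 cells with TRAV12D-2 and TRAJ32 and one of 3 cells with TRAV12D-2 and TRAJ23. In YTBI_aCD49d the largest had 7 cells (1.21%, 0.489 to 2.48), with TRAV12-2, TRAJ30 and TRBV12-1. The 7 other clonal ones had 2 cells each and tied for the next place. They joined TRAV12-2 to TRAJ32 and to TRAJ43, TRAV12-1 to TRAJ22 and to TRAJ56, TRAV12D-1 to TRAJ12 and to TRAJ27, and TRAV12D-2 to TRAJ7. In YTBI_Isotype the largest were a pair of 3 cells each (1.15%, 0.237 to 3.31), both with TRAV12D-2, joined to TRAJ9 with TRBV14 and to TRAJ22 with TRBV19. They were followed by 2 clonotypes of 2 cells, TRAV12D-3 with TRAJ9 and TRBV10 and TRAV12D-1 with TRAJ37 and TRBV20.

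A single combination of V and J segments in both chains occurred in at least 3 TRAV12 clonotypes. TRAV12D-2 with TRAJ22 and TRBV13-1 with TRBJ2-7 was found in 1 clonotype of ATBI_Isotype and 2 of ATBI_aCD49d, 4 cells in all. It also gave the one TRAV12 alpha CDR3 of 162 (0.617%, 0.0156 to 3.39) that was seen in more than 1 library at the level of residues, against 17 of 1167 (1.46%, 0.851 to 2.32) for other alpha chains. The sequences are shown because the same residues were encoded by different beta bases in pools of different mice. Capitals mark the bases that vary between the 3 clonotypes.
Alpha chain, ATBI_Isotype clonotype of 1 cell: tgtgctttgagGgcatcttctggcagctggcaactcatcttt
Alpha chain, ATBI_aCD49d clonotype of 1 cell: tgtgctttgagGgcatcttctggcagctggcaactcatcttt
Alpha chain, ATBI_aCD49d clonotype of 2 cells: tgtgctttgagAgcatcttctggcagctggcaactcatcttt
Beta chain, ATBI_Isotype clonotype of 1 cell: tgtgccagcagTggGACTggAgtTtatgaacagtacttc
Beta chain, ATBI_aCD49d clonotype of 1 cell: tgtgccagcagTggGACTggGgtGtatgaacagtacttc
Beta chain, ATBI_aCD49d clonotype of 2 cells: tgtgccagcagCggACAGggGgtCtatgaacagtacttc
The clonotypes of 1 cell had alpha chains with 0 differing bases and beta chains with 2 differing bases and 0 differing residues. The clonotype of 2 cells differed from them at 1 alpha base, which left the residues the same, and at 6 or 7 beta bases and 1 of 13 beta residues. The ATBI_aCD49d clonotype of 1 cell also had another beta chain, with TRBV15, which rested on 28 UMIs against 15 for its TRBV13-1 chain. Which of these was paired with the alpha chain cannot be told apart. The alpha chains rested on a median of 4 or 5 UMIs and the TRBV13-1 chains on 15 to 21.

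A further productive alpha chain was found beside TRAV12 in 2 of 31 cells of YTBI_Isotype, 9 of 49 of YTBI_aCD49d, 3 of 178 of ATBI_Isotype and 8 of 106 of ATBI_aCD49d. A cell with 2 alpha chains is more likely to be taken as a TRAV12 cell, so the comparison was made per chain, a step chosen after values had been seen. In YTBI_aCD49d a further alpha chain lay beside 18.4% (8.76 to 32.02) of TRAV12 chains and 13.9% of other alpha chains, a difference of 4.44 points (-5.82 to 18.4). In the other libraries the shares were 6.45%, 1.69% and 7.55% of TRAV12 chains, against 14.9%, 8.36% and 9.58% of other chains. In ATBI_Isotype 113 of the 178 TRAV12 chains were the same rearrangement, so they do not count separately.

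Other large families also had a larger share of cells than of clonotypes in an aged library. TRAV9 held 22.8% of the cells and 9.66% of the clonotypes of ATBI_aCD49d, where its largest clonotype had 101 cells. TRAV7 held 18.2% of the cells and 12.5% of the clonotypes of ATBI_Isotype, with a clonotype of 109 cells. TRAV14, in contrast, held 10.5% of both in ATBI_Isotype. By the pattern of clonotype shares over the 4 libraries, each divided by its mean, the families nearest to TRAV12 of 12 compared were TRAV8 (Euclidean distance 0.0651), TRAV4 (0.265) and TRAV9 (0.272).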

How the data were processed

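Single-cell TCR libraries of brain CD45+ cells were analysed, and the matching transcriptome libraries were not analysed here. The authors loaded the cells on a 10x Genomics chip and processed reads with Cell Ranger (7.2.0 in the submitters' processing notes) against mm10. The deposited contig tables give the UMIs and reads behind each chain as counts, and the deposited clonotype tables give cells per clonotype, both as counts and as a fraction of all cells. The authors later kept only receptors of transcriptome-defined T cells, which was not repeated. How the V call chooses between identical genes is not given in the sources used here.

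Chains were taken by their V call, and clonotypes as deposited; no doublet caller was run. Members and lists were chosen with earlier results of these data known. The text names all members, the 5 leading TRBV partners, and the 5 leading TRAJ partners with TRAJ34, which tied with the last of them. Also named are the 3 largest TRAV12 clonotypes of at least 2 cells and any above 1% per library, with ties. Segment combinations of at least 3 clonotypes and the 3 most alike families are named as well. Positions and transcripts are from GENCODE vM21 on GRCm38. A share of 0 clonotypes was set to 0.5 clonotypes for a fold. The split of J use between copies was tabulated after values had been seen. Alternatives were other sets of cells, UMI minimums, definitions of a clonotype, units counted and omitted clones. Interval and thinning code was tested on simulated data. Python 3.11.15, pandas 2.3.3, numpy 2.4.6, scipy 1.17.1 and matplotlib 3.10.9 were used.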

Additional observations from a re-analysis of the deposited data

Results flagged for a closer look

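The clonal share of TRAV12 cells differed in opposite directions between treatments in the aged and the young libraries. ATBI_Isotype minus ATBI_aCD49d was 20.3 points and YTBI_Isotype minus YTBI_aCD49d was -10.9 points. The difference between these effects was not tested, since each group is 1 library, and the interval of the young difference (-31.4 to 12.1) held 0. With at least 3 cells required the young difference turned to 3.88 points (-12.6 to 23.1), from 16.1% against 12.2%, and the aged one was 28.7 points. Expected values in 31 cells were 22.6% and 24.9% in the young libraries, a difference of -2.36 points, and 70.3% and 45.9% in the aged ones, a difference of 24.5 points. Without the clonotypes with the alpha chain of the largest in every library, the differences were 9.77 points (-7.96 to 26.9) in aged and -7.22 points (-27.5 to 15.6) in young mice, or -10.05 points (-29.7 to 12.8) with the other of 2 tied clonotypes of YTBI_Isotype left out.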

How the results depend on the processing

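Of 158 values recomputed under alternatives, 128 stayed within the 95% interval of the reported value, or within 1 SD for CDR3 length and 1.5 times for counts of genes. Of these, 4 differences whose reported interval held 0 changed sign: ATBI_aCD49d minus YTBI_aCD49d by cells was -2.28 points without the largest clonotype and likewise without its alpha chain, and ATBI_Isotype minus YTBI_Isotype by clonotypes was -0.597 with both chains required and -0.358 without cells with extra chains. Without the largest TRAV12 clonotype of each library, the share of cells was 17.8% in ATBI_Isotype and 7.36% in ATBI_aCD49d, and ATBI_Isotype exceeded ATBI_aCD49d by 10.4 points (6.92 to 14.0) and YTBI_Isotype by 4.27 points (-1.78 to 9.62), or 4.68 with the other of 2 tied clonotypes of YTBI_Isotype left out. The omissions by alpha chain and of the tied clonotype were chosen after seeing the data. Without the clonotypes with the alpha chain of the largest in every library, the share of cells was 11.2% in ATBI_Isotype and 7.36% in ATBI_aCD49d, the differences of ATBI_Isotype from ATBI_aCD49d and YTBI_Isotype were 3.87 and -2.26 points (-1.86 with the other of the tie), and the clonal shares were 44.6% and 34.8% in the aged libraries. Left out of ATBI_Isotype alone, these clonotypes gave differences of -0.0864 and -3.06 points. With at least 3 cells required, as planned, the clonal share was 73.0% in ATBI_Isotype, 44.3% in ATBI_aCD49d, 16.1% in YTBI_Isotype and 12.2% in YTBI_aCD49d. Its expected value in 31 cells was 70.3% in ATBI_Isotype and 45.9% in ATBI_aCD49d, and 22.6% and 24.9% in the young isotype and aCD49d libraries, where only cells with the TRAV12 chain count towards a clone. Counting cells in place of clonotypes or rearrangements gave D genes 18.0% in ATBI_Isotype and 36.8% in ATBI_aCD49d, and in ATBI_Isotype gave TRAJ22 73.0% and TRBV19 1.99%. With at least 10 clonotypes in both libraries together, fewer TRAV genes were tested, and 7 of 34 (20.6%) were 2-fold apart between the aged libraries, 4 of 19 (21.1%) between the young, 7 of 22 (31.8%) between the isotype and 7 of 35 (20%) between the aCD49d libraries; 5 of the 7 calls of TRAV12 members were lost. By construction these alternatives omit cells or genes, require larger clonotypes or count large clonotypes by their size, and no other cause was tested. The difference in J use between unmarked and D genes kept its direction, with an interval above 0, under all 3 alternatives, also chosen after seeing the data, from 15.1 points by cells to 45.9 points without TRAV12-1 and TRAV12D-1. No paired analysis was possible because the labels give a single replicate number, so that the groups share fewer than 2; unmarked and D genes were set against each other within each library. Depth limits the shares of the rarer members, such as TRAV12D-1 with 8 rearrangements.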
